A study of Mus musculus with 2 samples.

Results

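The SR protein genes (Srsf) and the hnRNP genes (Hnrnp) encode the best-known families of RNA-binding splicing regulators. They were followed here as the 31 protein-coding genes whose symbol is Srsf with a number or starts with Hnrnp, 11 Srsf and 20 Hnrnp genes among 21474 protein-coding genes of the tables. The rule itself used names only. The RNA was from whole brain of C57BL/6J mice at embryonic day 14.5, taken from littermates of mixed sex, with no genetic change or treatment named in the labels. There were 2 stranded paired-end libraries of polyadenylated, rRNA-depleted RNA, replicates 1 and 2 of 1 group, so no conditions were compared and no p-value was computed. The labels call them biological replicates but do not say which animals went into which library, so the spread between them may be partly technical.

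SR proteins carry RNA recognition motifs and a tail rich in arginine and serine, bind exon sequences and help the spliceosome to choose nearby splice sites. The hnRNPs coat nascent RNA and often act against SR proteins, repressing splice sites or looping exons out. Many genes of both families control their own output by splicing: when the protein is plentiful, it steers its own transcript to a form with an early stop codon, which nonsense-mediated decay degrades. Exons that bring in such a stop are called poison exons, and some of them lie within the most conserved stretches of mammalian genomes. Developing brain makes heavy use of alternative splicing as progenitors become neurons.

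The deposited gene values are TPM, each gene's length-scaled share of all transcripts, and can be set side by side between genes. All 31 members had at least 1 TPM in both libraries, on 2103 to 90403 expected counts (the estimated fragments per gene) per member and library. Together they held 0.909% of all TPM in replicate 1 and 0.798% in replicate 2. The median over genes, each at its mean TPM, was 283 for the Srsf genes and 209 for the Hnrnp genes, against 19.9 for the 13642 protein-coding genes with a mean of 1 TPM or more. Of the members, 23 of 31 (74.2%) had a mean of 100 TPM or more, against 11.1% of those protein-coding genes.

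The libraries held 107938353 and 101105391 expected counts in replicates 1 and 2. As a check of the tissue, all 16 listed young neuron genes had at least 1 TPM in both libraries. Of these, 15 were lower in replicate 1, 5 of them by 1.5-fold or more, and their summed TPM was 6799 in replicate 1 and 7985 in replicate 2. Other tissue was also present: the summed TPM of 10 erythroid genes was 9948 in replicate 1 and 12063 in replicate 2, and that of 8 meningeal and bone genes was 463 and 895. The libraries stood apart in several lists. Of the 13642 protein-coding genes with a mean of 1 TPM or more, 48.8% were higher in replicate 1. At 1.5-fold or more, 5.86% were higher in replicate 1 and 8.45% in replicate 2. The 10 radial glia genes were mixed, with 6 higher in replicate 1 and 4 in replicate 2. Cell cycle genes were higher in replicate 1 for 14 of 15 genes (summed TPM 1174 in replicate 1 and 607 in replicate 2), as were all 8 forebrain patterning genes (777 and 340), whereas 10 of 11 genes of the hindbrain list (Hox genes and Egr2) were at least 1.5-fold higher in replicate 2 (summed TPM 28.2 in replicate 1 and 196 in replicate 2). Mitochondrial genes held 8.49% of TPM in replicate 1 and 12.2% in replicate 2. In RNA from whole tissue, fewer cells of a type and less RNA per cell cannot be told apart.

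Sequences of the reading-frame ends come first, because transcripts of the decay class held a large part of several members' TPM. Nonsense-mediated decay transcripts made up 23 of the 212 transcripts of members in the tables, in 14 genes. In all 23 the annotated stop codon lay at least 50 nt before the last exon junction (67 to 860 nt, median 251), which is how the annotation defines the class. Of these transcripts, 5 held at least 10% of the TPM of their gene. The exon that holds their stop is shown from its first coding base to the stop codon, 5′ to 3′ on the strand of the gene, with the stop codon in capitals (spliced transcripts of GENCODE vM21, GRCm38).

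Srsf3-201, exon 4 of 7, chr17:29039454-29039487, plus strand: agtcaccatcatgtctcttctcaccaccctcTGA
Srsf6-201, exon 3 of 7, chr2:162932815-162932966, plus strand: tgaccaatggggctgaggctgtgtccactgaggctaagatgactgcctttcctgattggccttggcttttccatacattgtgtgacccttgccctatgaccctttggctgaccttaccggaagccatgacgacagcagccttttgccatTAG
Hnrnph3-204, exon 3 of 9, chr10:63018122-63018225, minus strand: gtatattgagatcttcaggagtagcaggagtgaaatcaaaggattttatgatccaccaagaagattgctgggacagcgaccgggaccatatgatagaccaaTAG
Hnrnpll-203, exon 7 of 14, chr17:80044976-80045022, minus strand: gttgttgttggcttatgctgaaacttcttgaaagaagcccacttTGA
Hnrnpdl-201, exon 7 of 9, chr5:100036125-100036195, minus strand: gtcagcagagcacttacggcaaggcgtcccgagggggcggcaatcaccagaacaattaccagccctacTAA

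The reading frame of Srsf3-201 ended 34 nt into a 456-nt exon. That of Srsf6-201 ended 152 nt into a 268-nt exon. Hnrnpll-203 ended 47 nt into an 83-nt exon. In Hnrnpdl-201 the stop lay 126 nt before the last exon junction, the shortest distance of the 5, against 534 to 807 nt in the other 4. The 105-nt exon that follows in Hnrnpdl-201 lies downstream of the stop codon and does not supply it.

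Among the SR proteins, Srsf2 was highest. Srsf2, a protein of nuclear speckles, had 649 TPM in replicate 1 against 456 TPM in replicate 2 (mean 552 ± 137, SD, n = 2). Srsf5, an SR protein with a pair of RNA recognition motifs, had 457 and 414 TPM. Srsf1, the founding member of the family, had 517 and 348 TPM (432 ± 120), and Srsf11, known in neurons for the splicing of very short exons, had 508 and 333 TPM (420 ± 124). Srsf2 was above the other 3 and Srsf1 above Srsf11 in both libraries, while the place of Srsf5 among them changed between the libraries.

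Srsf3, the smallest SR protein, which also binds the mRNA export machinery, had 372 TPM in replicate 1 against 283 TPM in replicate 2. Srsf6 had 329 and 237 TPM, and Srsf7, an export-linked SR protein with a zinc knuckle, had 194 and 141 TPM. All of these were higher in replicate 1. Lower in level came Srsf10, which can act as a splicing repressor, with 118 and 97.2 TPM, Srsf9 with 90.4 and 73.4 TPM, and Srsf4 with 77.0 and 89.2 TPM. Srsf12, a close relative of Srsf10, was the lowest of all 31 members, at 18.2 TPM (replicate 1) and 25.9 TPM (replicate 2). Srsf4 and Srsf12 were the only Srsf genes that were lower in replicate 1.

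The highest hnRNP genes were Hnrnpa1 and Hnrnpk. Hnrnpa1, a repressor of splice sites that also shuttles mRNA to the cytoplasm, had 739 TPM in replicate 1 against 762 TPM in replicate 2 (751 ± 16.5), rank 118 among all protein-coding genes. Hnrnpk, which binds C-rich RNA through KH domains, had 770 and 630 TPM (700 ± 98.8). Their ranges overlapped. The relatives of Hnrnpa1 spread widely: Hnrnpa2b1 had 488 and 525 TPM, Hnrnpa0 had 330 and 297 TPM, and Hnrnpa3 had 257 and 366 TPM. Hnrnpab had 540 and 455 TPM.

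The hnRNPs that bind runs of G spread widely in level. Hnrnph1 led it with 579 TPM in replicate 1 against 528 TPM in replicate 2. Hnrnpf had 220 and 183 TPM, Hnrnph3 had 113 and 134 TPM, and Hnrnph2, an X-linked copy, had 64.9 and 65.7 TPM. Hnrnph1 was above the other 3 in both libraries. Hnrnpd, a binder of AU-rich elements, had 211 and 221 TPM, while its relative Hnrnpdl had 464 and 346 TPM. Of the pair that binds CA-rich RNA, Hnrnpl had 374 and 337 TPM and Hnrnpll had 71.0 and 62.3 TPM.

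The remaining hnRNP genes were of middle to low rank in the set. Hnrnpc, whose tetramers package nascent RNA, had 168 TPM in replicate 1 against 135 TPM in replicate 2. Hnrnpm had 131 and 154 TPM, and Hnrnpr had 111 and 110 TPM. The nuclear-scaffold protein gene Hnrnpu had 51.8 and 61.0 TPM, and its relatives Hnrnpul2 and Hnrnpul1 had 42.9 and 56.5 TPM and 27.9 and 52.6 TPM. These last 3 were the lowest hnRNP genes and all were lower in replicate 1. By expected counts, which do not divide by length, Hnrnpu lay above Hnrnpm and Hnrnpr, with 22174 and 21946 counts on a leading transcript of 7640 nt.

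**Figure D1:**
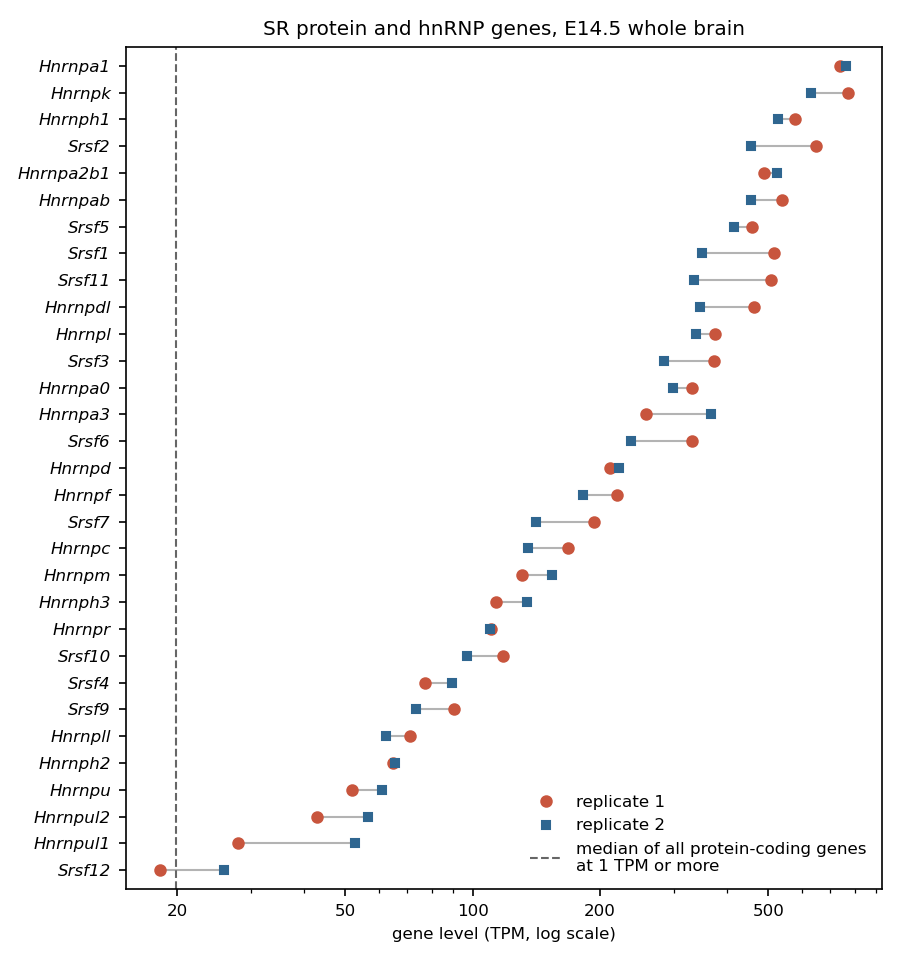
Level of each of the 31 members in TPM (log axis), with replicate 1 as circles, replicate 2 as squares and the median of protein-coding genes at 1 TPM or more as a dashed line. Hnrnpa1 and Hnrnpk head the set and Srsf12 is lowest, and most Srsf genes have the circle to the right of the square.

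Differences between the libraries were expressed as the log2 ratio of TPM + 1, replicate 1 over replicate 2, which understates differences of low genes. The median was 0.39 for the Srsf genes, -0.01 for the Hnrnp genes and -0.01 for all protein-coding genes with a mean of 1 TPM or more, whose median absolute ratio was 0.26. Of the Srsf genes, 9 of 11 were higher in replicate 1, against 48.8% of those protein-coding genes. The Hnrnp genes split evenly, with 10 of 20 higher in replicate 1. With DESeq2 size factors the Hnrnp split was 14 of 20, against 55.7% of all protein-coding genes. With TMM-normalized expected counts it was 14 of 20, against 54.4%. The Srsf count stayed at 9 of 11 under each scaling tried. Over the same scalings the share of all protein-coding genes ran from 42.6% (TPM without mitochondrial and spike-in entries) to 55.7%.

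Past 1.5-fold there were 2 of 31 members (6.45%), against 14.3% of all protein-coding genes tested, so large differences were not more frequent among the members than the background. Srsf11 alone was past it on the side of replicate 1, 1.53-fold higher there, against 5.86% of all genes. Hnrnpul1 alone was past it on the side of replicate 2, 1.88-fold higher there, against 8.45% of all. Srsf1 (1.49-fold) and Srsf2 (1.43-fold) lay just inside the threshold on the side of replicate 1, and Hnrnpa3 (1.42-fold) and Srsf12 (1.42-fold) on the side of replicate 2. The Hnrnpa3 log2 ratio was -0.51 on TPM, but -0.15 with DESeq2 size factors and -0.17 with TMM on expected counts. No member passed 2-fold, against 2.54% of all. The higher Srsf level in replicate 1 went with higher cell cycle and forebrain genes, lower young neuron, hindbrain, erythroid, meningeal and bone genes and a lower mitochondrial share in the same library, as given above. The part of these in the difference was not tested.

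**Figure D2:**
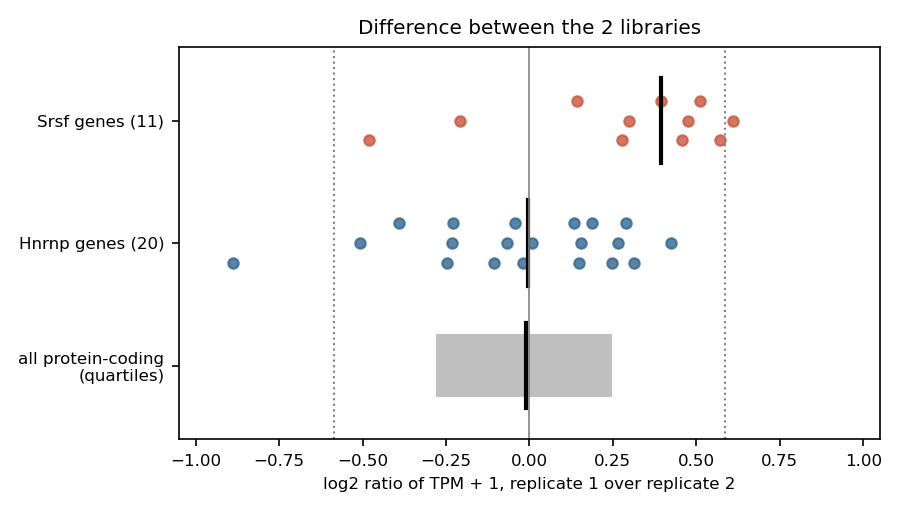
Log2 ratio of TPM + 1, replicate 1 over replicate 2, for each Srsf and Hnrnp gene (points), with the group medians as black bars, the range between the quartiles of all protein-coding genes as a grey box and 1.5-fold as dotted lines. The Srsf median (0.39) lies to the right of the grey box, the Hnrnp median (-0.01) inside it.

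Transcripts whose annotated class is not protein-coding were looked at next, and are called noncoding here. The word names the class only, since the 23 decay transcripts have an annotated reading frame with a stop codon. The tables hold 103 of them for the members, 51 with a retained intron, 29 processed transcripts without an open reading frame and the 23 decay transcripts, beside 108 protein-coding ones. They belong to 20 members, 9 Srsf and 11 Hnrnp genes. The other 11 members, Srsf7, Srsf12, Hnrnpa0, Hnrnpa1, Hnrnpa2b1, Hnrnpab, Hnrnpc, Hnrnpf, Hnrnph2, Hnrnpul1 and Hnrnpul2, have no such transcript in the tables, so a noncoding share could not be measured for them. The share is the percent of a gene's transcript TPM on these transcripts. Its median was 45.6% for 9 Srsf genes, 24.0% for 11 Hnrnp genes and 15.5% for 5746 protein-coding genes with a mean of 10 TPM or more and at least 1 noncoding transcript.

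Because many of these transcripts are short fragments, the share depends on whether length is divided out. Measured on expected counts, the medians were 14.3% for Srsf genes, 7.83% for Hnrnp genes and 6.22% for all. The order of the 3 groups was the same on both scales. Of the 21 noncoding transcripts with at least 10% of their gene, in 13 genes, 8 were shorter than 1000 nt. Among these 21 were 11 with a retained intron, 5 processed transcripts and the 5 decay transcripts shown above.

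A share of 50% or more in both libraries was found for 6 of the 20 members (30.0%), against 12.3% of the 5746 genes. Srsf3 had the highest share, 69.5% in replicate 1 and 63.3% in replicate 2 (mean 66.4 ± 4.34, SD, n = 2). Its decay transcript Srsf3-201 held 44.6% and 41.7%, and the 3986-nt retained-intron transcript Srsf3-204 held 20.9% and 18.4%. On expected counts the share of Srsf3 was 68.7% and 62.3%, so it did not rest on short fragments. Srsf3 lies at chr17:29032628-29043373 on the plus strand (GRCm38).

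Srsf11 followed with a noncoding share of 64.9% in replicate 1 and 65.2% in replicate 2, mostly from retained introns (54.1% and 55.4%). Its leading transcript was the 1309-nt Srsf11-203, with 37.0% and 31.9%, and the retained-intron transcript Srsf11-208 held 10.1% and 11.9%. Srsf6 had 63.4% and 59.5%, of which the retained-intron transcript Srsf6-204 held 42.6% and 37.8% and the decay transcript Srsf6-201 held 20.8% and 21.7%. On expected counts these genes kept a share near or above 50%, with 52.0% and 53.5% for Srsf11 and 54.3% and 49.9% for Srsf6.

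Srsf5 had a noncoding share of 62.1% in replicate 1 and 57.5% in replicate 2 without any sizeable decay transcript. Its retained-intron transcript Srsf5-212 held 31.5% and 24.7% and the 538-nt processed transcript Srsf5-211 held 22.6% and 20.4%, against 29.2% and 33.4% for the leading coding transcript Srsf5-201. Replicate 1 was led by the retained-intron form and replicate 2 by the coding form. By counts the noncoding share of Srsf5 was 65.7% and 59.2%.

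Srsf1 depended strongly on length. Its noncoding share was 48.0% in replicate 1 and 43.2% in replicate 2 by TPM, led by the 759-nt retained-intron transcript Srsf1-203 with 33.5% and 28.5%. By expected counts the share was 15.2% and 13.3%. Srsf10, likewise, had 25.2% and 25.9% by TPM, with its 717-nt processed transcript Srsf10-207 at 9.13% and 11.6%, but 4.46% and 4.60% by counts. The remaining Srsf genes had low shares: Srsf2 had 15.1% and 17.5%, with the retained-intron transcript Srsf2-203 at 10.9% and 14.0%, Srsf9 had 12.9% and 14.4%, and Srsf4 had 12.3% and 14.4%. In these 3 a protein-coding transcript led with more than 80%, Srsf2-201 (81.7% and 80.6%), Srsf9-201 (86.8% and 85.6%) and Srsf4-202 (87.7% and 85.5%).

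Among the hnRNP genes, Hnrnph3, Hnrnph1 and Hnrnpdl had the highest noncoding shares. Hnrnph3 had 58.1% in replicate 1 and 53.5% in replicate 2, and its decay transcript Hnrnph3-204 led all its transcripts with 26.8% and 25.3%. The short retained-intron transcripts Hnrnph3-206 and Hnrnph3-205 held 19.5% and 14.5%, and 11.9% and 13.7%. Hnrnph1 had 57.4% and 50.8%, all of it on processed transcripts, of which 15 are listed. A 159-nt processed transcript of Hnrnph1 gave 8.09% in replicate 1 on 6.58 expected counts and 0% in replicate 2. By counts the noncoding share was 46.8% and 43.6% for Hnrnph1 and 44.4% and 40.3% for Hnrnph3. The 4002-nt Hnrnph1-204 held 13.0% and 13.5% and the 914-nt Hnrnph1-218 held 14.1% and 15.6%, while the coding transcript Hnrnph1-201 led with 35.8% and 42.1%.

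Hnrnpdl had a noncoding share of 54.1% in replicate 1 and 47.7% in replicate 2. The decay transcript Hnrnpdl-201 held 21.3% and 19.8%, the processed transcript Hnrnpdl-203 held 17.5% and 12.2%, and the coding Hnrnpdl-207 led with 29.3% and 28.3%. Its relative Hnrnpd had only 4.90% and 4.46%, with the coding Hnrnpd-203 at 43.2% and 37.1%, so the pair differed by much more than the spread between the libraries. A similar pair, Hnrnpl and Hnrnpll, had closer shares. Hnrnpl had 28.7% and 31.9%, with the retained-intron transcript Hnrnpl-205 at 11.1% and 12.3%, and Hnrnpll had 30.3% and 30.0%, with the decay transcript Hnrnpll-203 at 13.1% and 11.4%.

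In Hnrnpk and Hnrnpu the share also differed between the scales. Hnrnpk had 26.9% in replicate 1 and 21.04% in replicate 2 by TPM, and 8.79% and 6.87% by counts. Hnrnpu had 16.9% and 22.6% by TPM, with its 673-nt retained-intron transcript Hnrnpu-202 at 8.09% and 13.7%, but 1.44% and 2.03% by counts. Hnrnpm (2.17% and 3.20%), Hnrnpr (2.00% and 2.12%) and Hnrnpa3 (1.74% and 1.28%) were almost wholly coding. For members without a listed noncoding transcript, the coding leaders by mean TPM began with Hnrnpa0-201, Hnrnpul2-201 and Srsf7-201 at 100% each. Then came Hnrnpul1-201 (98.2% and 98.8%) and Hnrnpc-201 (94.4% and 94.9%). Lower were Hnrnpf-201 (54.4% and 44.8%), Srsf12-201 (51.0% and 49.9%), Hnrnpab-201 (48.5% and 51.3%) and Hnrnpa2b1-202 (43.6% and 56.6%). Within single libraries, Hnrnpa2b1-203 led in replicate 1 (52.3%) and Srsf12-202 in replicate 2 (50.1%).

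**Figure D3:**
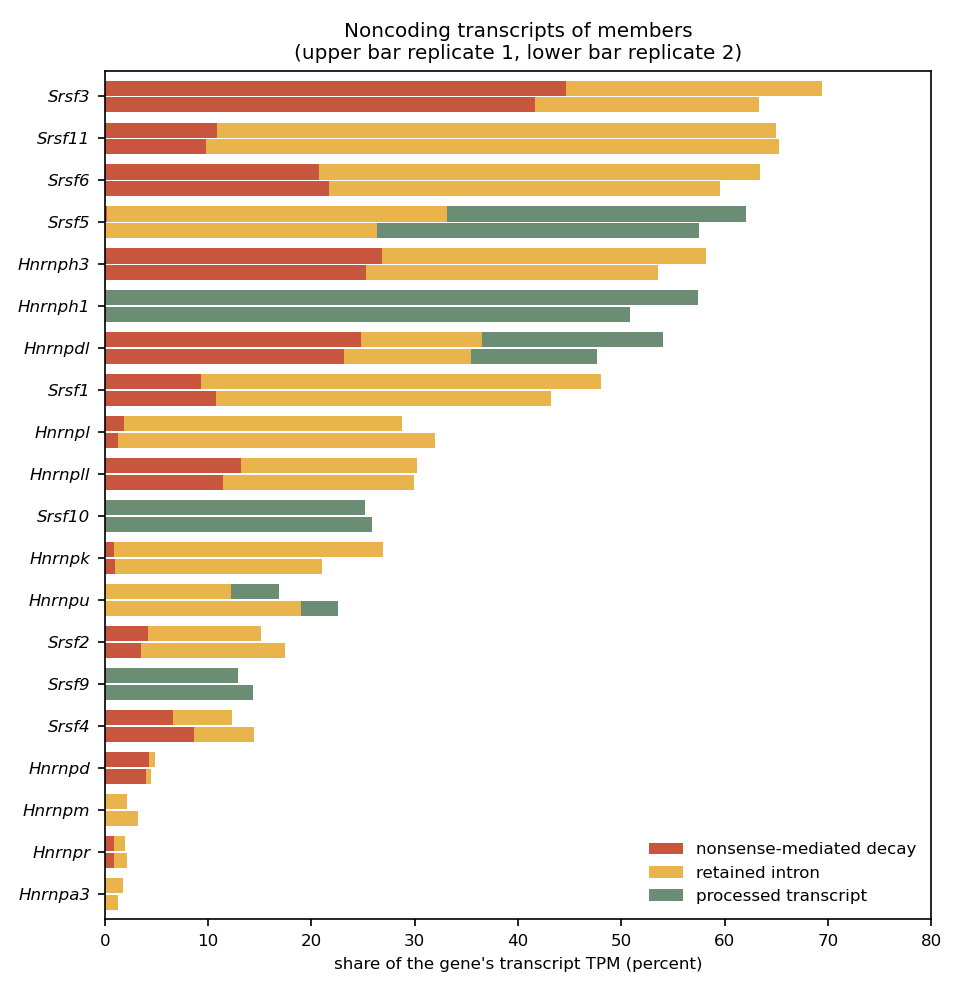
Share of each gene's transcript TPM on decay, retained-intron and processed transcripts for the 20 members with any such transcript, replicate 1 above replicate 2. Srsf3, Srsf11, Srsf6, Srsf5, Hnrnph3 and Hnrnph1 exceed 50% in both libraries, and the make-up differs: decay transcripts in Srsf3, retained introns in Srsf11 and processed transcripts in Hnrnph1.

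Leading transcripts gave a narrower picture. A noncoding transcript was the highest by mean TPM in 5 of the 28 members with 2 or more transcripts (17.9%), against 8.83% of 7021 protein-coding genes. These were Srsf1, Srsf3, Srsf6, Srsf11 and Hnrnph3, so 4 of 10 Srsf genes and 1 of 18 Hnrnp genes. Ranked within each library, 5 Srsf genes were led by a noncoding transcript in replicate 1 and 3 in replicate 2. Over all protein-coding genes the counts were 677 and 566. Srsf6 was led by Srsf6-204 in replicate 1 but by the coding Srsf6-203 in replicate 2, which held 36.6% and 40.3%. Ranked by expected counts, 1 Srsf gene and 0 Hnrnp genes were led by a noncoding transcript, against 344 of all genes in place of 620. That gene was Srsf5, through its retained-intron transcript Srsf5-212, and it was not among the 5 by TPM. The leading transcript was the same in both libraries for 25 of the 31 members. For Hnrnpa0, Hnrnpul2 and Srsf7, with 1 transcript each, it could not differ. No such count over all protein-coding genes stands beside this one, so it is not read as a trait of the members. It differed for Srsf5, Srsf6, Srsf12, Hnrnpa2b1, Hnrnpa3 and Hnrnpr, whose leaders are given by mean TPM. In replicate 1, Hnrnpa3-203 (49.7%) and Hnrnpr-204 (40.4%) led instead. The leaders not given above were all protein-coding. They ranged from Hnrnpu-201 (83.1% in replicate 1 and 77.4% in replicate 2), Hnrnpm-201 (74.1% and 68.6%) and Hnrnpa1-202 (71.9% and 70.2%) to Hnrnpll-205 (58.8% and 59.0%), Hnrnph2-203 (49.1% and 54.5%) and Hnrnpa3-204 (40.4% and 44.5%). Below these came Hnrnpr-202 (39.6% and 44.3%), Hnrnpl-201 (38.9% and 42.6%), Srsf10-204 (36.6% and 36.2%) and Hnrnpk-201 (27.0% and 29.6%), so in none of these 4 did a single transcript hold most of the TPM.

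**Figure D4:**
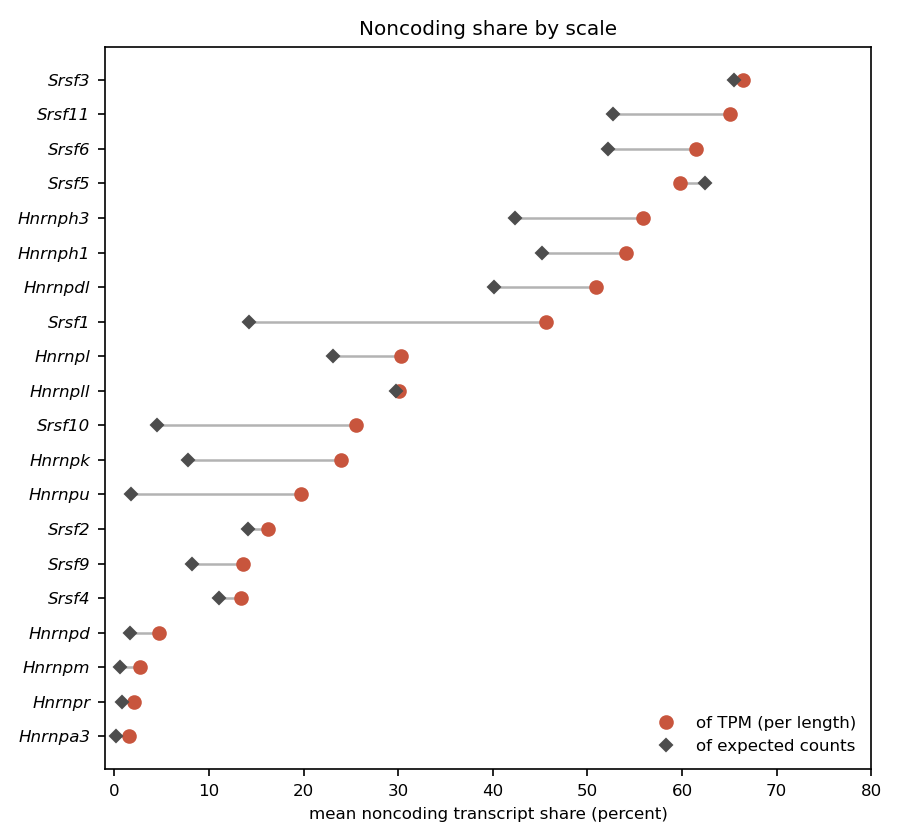
Mean noncoding share of the same 20 members measured on TPM (circles) and on expected counts (diamonds). The 2 marks lie close together for Srsf3, Srsf5 and Hnrnpll and far apart for Srsf1, Srsf10, Hnrnpk and Hnrnpu.

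Coding and noncoding TPM were then set apart by library. The coding TPM of Srsf3 was 114 in replicate 1 and 104 in replicate 2, while its noncoding TPM was 259 and 179, so most of its gene-level difference lay on noncoding transcripts. Srsf5 showed the same split, with 173 and 176 coding TPM and 284 and 238 noncoding TPM. In Srsf2 the difference lay on the coding side, with 551 and 376 coding TPM and 98.1 and 79.5 noncoding TPM. For Srsf11 both moved alike (178 and 116 coding, 330 and 217 noncoding). Counting coding TPM only, 8 of 11 Srsf genes were higher in replicate 1, with 1 past 1.5-fold. No count of coding TPM over all protein-coding genes stands beside these, so they are not read as a trait of the family. The noncoding share itself was higher in replicate 1 for 11 of 20 members, against 48.4% of the 5746 genes.

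Splice junction reads gave a second view of the same genes that needs no transcript model. They were counted on the older mm9 build, and the numbers of its replicates are not tied to the libraries above, so they are called the first and the second junction replicate. Inclusion of an exon is the mean of the reads over its upstream and downstream junctions, as a percent of that mean plus the reads that skip it. Exact 95% binomial intervals cover counting error only. Among internal exons of noncoding transcripts that overlap no coding exon, 12 exons in 7 members had a skipping junction of at least 20 reads, with a median inclusion of 4.70% and 7 of 12 under 5%. Over the 6 exons with at least 20 reads on both inclusion junctions the median was 14.05%.

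Of these 6, the 104-nt exon of Srsf2-202 was included in 4.75% (interval 4.14 to 5.41), from 137 and 288 inclusion reads against 4258 skipping reads, with 4.83% in the first junction replicate and 4.63% in the second. The 70-nt exon of Hnrnpl-213 was included in 3.84% (3.34 to 4.37), from 165 and 260 reads against 5321. The 107-nt exon shared by Hnrnpd-204 and Hnrnpd-208 was included in 2.78% (2.24 to 3.42), from 137 and 39 reads against 3075. These 3 exons were spliced out of nearly all junction reads in both junction replicates. Only the exon of Hnrnpl-213 holds the annotated stop codon of its transcript. Those of Srsf2-202 and of Hnrnpd-204 and Hnrnpd-208 do not.

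In Srsf11 the 117-nt exon of the decay transcripts Srsf11-206 and Srsf11-212 was included in 23.3% (22.0 to 24.7), but its upstream junction had 195 reads and its downstream junction 1603, against 2953 skipping reads. The 64-nt exon of the retained-intron transcript Srsf11-203 was included in 75.6% (71.7 to 79.1), from 363 and 447 reads against 131 that skip it. That skipping junction is no intron of a coding transcript. The neighbouring 109-nt exon was included in 2.38%, with 131 and 13 inclusion reads. The part of the Srsf11 and Hnrnpl exons up to the stop codon is shown here, because these cassette exons hold the annotated stop themselves (GENCODE vM21, GRCm38, 5′ to 3′, stop in capitals).

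Srsf11-212, 117-nt exon, chr3:158023310-158023359, minus strand: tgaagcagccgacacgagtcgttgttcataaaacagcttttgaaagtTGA
Srsf11-206, 109-nt exon, chr3:158024209-158024231, minus strand: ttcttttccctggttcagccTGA
Hnrnpl-213, 70-nt exon, chr7:28817335-28817393, plus strand: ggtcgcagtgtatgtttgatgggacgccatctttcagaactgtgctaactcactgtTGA

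The 456-nt exon of Srsf3-201 gave an inclusion of 93.6% (92.03 to 94.97), which is not well determined. Its upstream junction had 1884 reads and its downstream junction 228, against 72 that skip it, and all junctions of Srsf3 together had 63.7 reads per 1000 expected counts. Srsf3 has 4 annotated pseudogene copies in GENCODE vM21 that match its leading coding transcript at 90% identity or more over at least 300 nt. Junction reads were also sparse in Hnrnpa3 (18.1 per 1000 expected counts, 37 copies) and Hnrnpa1 (69.2, 17 copies). Values were 55.6 in Hnrnph2 (1 copy) and 116 in Srsf2 (0 copies), against 446 in Hnrnpc (3 copies) and 858 in Srsf7 (1 copy). Hnrnpa0 (3.60, 0 copies) has 0 annotated junctions, so its low value was fixed by its structure and does not bear on copies. The rate is not adjusted for the number of junctions, with 5 annotated in Hnrnph2 and Srsf2 and 11 in Hnrnpa1 and Hnrnpa3. The part of the copies in these counts was not tested. Copies were found for 14 of the 31 members, of which only some are given here. No such count over all protein-coding genes stands beside this one. The deposited mm9 gene values likewise put Hnrnpa1, the highest member by mm10 TPM, at 10.8 and 10.6 RPKM, below Hnrnpab with 48.5 and 67.4 RPKM, and the cause of this difference between the tables was not tested. In the gene tables the copies of Hnrnpk summed to 59.7 TPM in replicate 1 against 52.8 TPM in replicate 2 and those of Hnrnpc to 50.8 and 41.0 TPM. The treatment of reads that match several places is not stated in the labels or file headers.

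The other 5 of the 12 exons each had an inclusion junction of 2 reads or fewer. They were the 71-nt exon of Hnrnpd-209 (2.21%), the 51-nt exon of Hnrnpu-206 (4.65%) and the 184-nt (1.42%), 198-nt (88.1%) and 174-nt (16.9%) exons of Srsf4. Since their values rest on 1 junction, they are not read further. With the 109-nt exon of Srsf11 these complete the 12.

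Exons that overlap a coding exon, added after the values were seen, included the poison exon of Srsf6-201 shown above. This 268-nt exon was included in 16.5% (15.3 to 17.7), from 359 and 870 reads against 3105, with 16.82% in the first junction replicate and 16.05% in the second. The 105-nt exon of Hnrnpdl-201 was included in 35.9% (34.3 to 37.5), but with 42.7% in the first junction replicate and 27.1% in the second, a gap wider than the counting interval. The 90-nt exon of Srsf9-203 was included in 10.3% (9.12 to 11.6). The Srsf6 and Srsf9 values differed by more than the spread between their junction replicates.

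Exons outside the mm9 annotation were also found, 8 in 7 members. Srsf7, which has 1 transcript in the mm10 tables and so no measurable noncoding share, had a 460-nt exon included in 10.9% (9.84 to 12.0), from 413 and 310 reads against 2966, with 10.8% and 10.9% in the junction replicates. An internal exon of that length belongs to the decay transcript Srsf7-203 in GENCODE vM21. In Hnrnpll an 83-nt exon was included in 9.45% (8.06 to 10.99), and the decay transcript Hnrnpll-203 has an exon of 83 nt in the same annotation. For comparison, Hnrnpll-203 held 13.1% and 11.4% of the TPM of its gene.

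Of the other 6, a 358-nt exon of Srsf9 was included in 2.48% and matched in length Srsf9-202, a processed transcript, and Srsf9-205, a decay transcript. An 86-nt exon of Hnrnph3 (2.98%) and a 112-nt exon of Srsf11 (2.33%) matched no internal exon of their gene in length. The 3 others had unequal inclusion junctions: a 530-nt exon of Hnrnpc (678 and 2189 reads against 1325), which matched in length the protein-coding Hnrnpc-213, a 534-nt exon of Srsf5 (110 and 22 against 20) and a 989-nt stretch of Srsf11 (131 and 1603 against 2953). In all, unannotated junctions took 3.96% of the 870575 junction reads within the members.

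**Figure D5:**
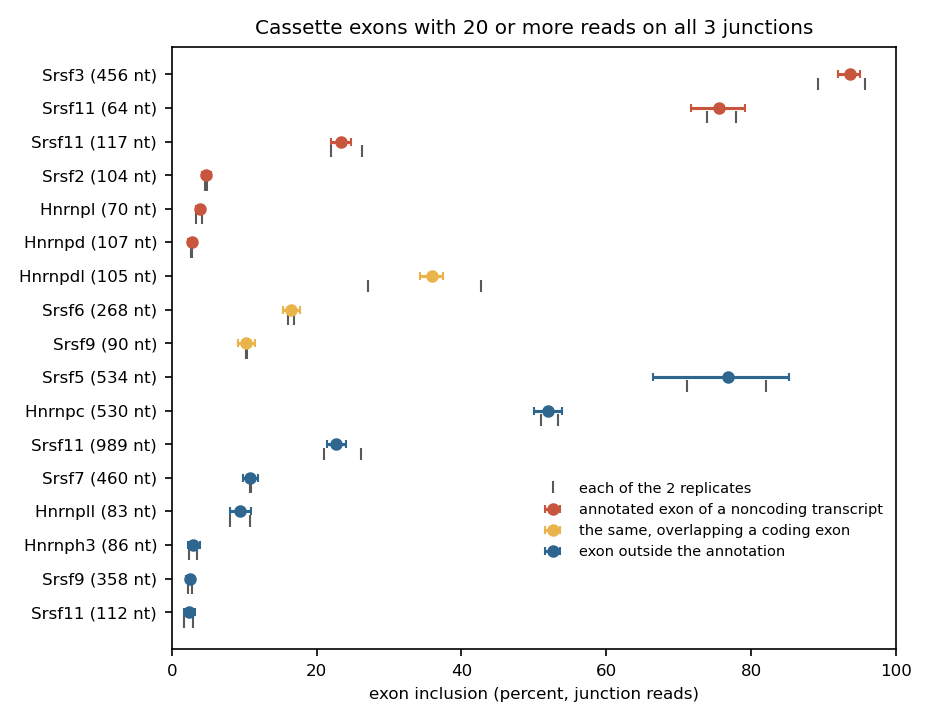
Exon inclusion in percent for exons with 20 or more reads on all 3 junctions, with exact 95% binomial intervals as bars and the 2 junction replicates as ticks below each point. The exons of Hnrnpl, Hnrnpd and Srsf2 lie under 5%, Srsf7 and Hnrnpll near 10% and Srsf6 at 16.5%, while Hnrnpdl shows replicates far apart.

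Genes that act with the members were summarised from lists. The SR protein kinases had a median of 72.3 TPM over 7 genes. Clk1, a nuclear kinase of SR proteins, was highest with 215 TPM in replicate 1 against 155 TPM in replicate 2, and 79.3% and 77.9% of its transcript TPM was noncoding. Clk4 had 139 and 118 TPM with 48.7% and 52.6% noncoding, and Clk2 had 101.5 and 78.6 TPM with 59.5% and 55.6%. The share of Clk1 was above that of every Srsf gene with a measured share in both libraries. The shares of listed genes, here and below, are by TPM only, so the part that rests on short transcripts is not shown. Clk3 and Srpk2 of the same list stood at 0%. A gene with no listed noncoding transcript also gets 0%, so this value is not read as a contrast. No kinase was 1.5-fold apart between the libraries, against 14.3% of all genes.

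The median was 129 TPM for 11 SR-related proteins and 151 TPM for 15 other hnRNP family proteins. Srrm2, a speckle scaffold, had 617 TPM in replicate 1 against 625 TPM in replicate 2, with 73.6% and 69.9% noncoding. Tardbp had 520 and 333 TPM, and Cirbp, the cold-inducible RNA-binding protein, had 406 and 290 TPM. Tardbp, which controls its own level through its transcript, was 1 of 15 genes of the other hnRNP list at least 1.5-fold higher in replicate 1 (5.86% of all genes), and 1 of 15, Syncrip, was past 1.5-fold on the side of replicate 2 with 27.6 and 56.0 TPM (8.45% of all genes). Of the SR-related genes, 0 of 11 passed 1.5-fold on the side of replicate 1 and 1 of 11, Srrm1 (63.6 and 101.3 TPM), on the side of replicate 2. Syncrip and Srrm1 were named after their values were seen.

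The list of U2AF, U1 snRNP and other spliceosome genes had a median of 148 TPM over 10 genes. U2AF and the U1 snRNP recognise the splice sites. In the list, 8 of 10 genes were higher in replicate 1 (48.8% of all genes) and 2 of 10 past 1.5-fold there (5.86% of all genes). The 14 nonsense-mediated decay factors were lower, with a median of 28.4 TPM and all 14 at 1 TPM or more in both libraries. Eif4a3, the core of the exon junction complex, had 180 and 143 TPM, Magoh had 107 and 81.0 TPM and Smg5 had 100 and 82.3 TPM. The list median log2 ratio was -0.04, with 5 genes higher in replicate 1 (48.8% of all genes) and 9 in replicate 2. On the side of replicate 1, 0 of 14 passed 1.5-fold (5.86% of all genes). On the side of replicate 2, 2 of 14 did (8.45% of all genes). These were the decay helicase Upf1 (16.7 and 29.7 TPM) and its partner Upf2 (7.40 and 12.6 TPM). Both were named after their values were seen.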

How the data were processed

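The deposited mm10 tables give, per gene and transcript, an expected count (estimated fragments), TPM and FPKM, made by the authors from transcriptome alignments on GENCODE M4 models, per the notes deposited with the files, which name no tool. TPM was scaled by the authors over all entries, spike-in and mitochondrial ones included. The deposited mm9 junction list holds a read count per junction and replicate and a reproducibility value, a fraction that is low when reproducible. RPKM values on Ensembl 65 models (mm9) were deposited for genes.

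Symbols, biotypes and coordinates came from GENCODE vM21 by Ensembl identifier; 1 of 212 member transcripts was unmatched. All comparisons were descriptive: 1 group of 2 libraries allows no test. Ratios used a pseudocount of 1 TPM. Named items were all members, their leading transcripts, noncoding transcripts at 10% or more of a gene, and cassette exons skipped by 20 or more reads. Of other lists, the 3 highest genes and any 2-fold apart could be named. The values of 1 listed gene are not reported here. The members and lists were chosen with earlier results of these data known. Expected counts were rounded before DESeq2 1.42.0 size factors and edgeR 4.0.16 TMM factors, used for scaling only. Copies were found with blastn 2.17.0. Statistics were tested on simulated data. Python 3.11.15, pandas 2.3.3, scipy 1.17.1 and R 4.3.3 were used. Depth was 107938353 and 101105391 expected counts; multiply matching reads and PCR copies are not independent molecules, so intervals cover counting error only.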

Additional observations from a re-analysis of the deposited data

How the results depend on the processing

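Posterior mean TPM changed no family median of level or noncoding share beyond the spread between the libraries. Leaving out each library gave median levels of 237 to 329 TPM (Srsf) and 202 to 216 TPM (Hnrnp). Levels changed with unit: FPKM gave medians of 176 (Srsf) and 129.5 (Hnrnp), mm9 RPKM gave 31.3 and 22.3, and TPM without mitochondrial and spike-in entries gave 244 for Hnrnp, against 283 and 209 TPM. The median Hnrnp log2 ratio (-0.0058) turned positive with FPKM (0.058), DESeq2 size factors (0.115) and TMM (0.1), while the Srsf median stayed between 0.33 and 0.48. Srsf genes past 1.5-fold in replicate 1 numbered 0 after that rescaling and 2 with FPKM, against 1. Of all genes at a mean of 10 TPM, 1214 were 1.5-fold apart, against 1953 of 13642 at 1 TPM. The first count covers fewer genes, so the 2 counts do not compare rates.

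Noncoding share medians for Srsf, Hnrnp and all genes were 14.3%, 7.83% and 6.22% on expected counts, 7.63%, 0.943% and 0 for decay transcripts only, and 23.2%, 12.0% and 5.41% for retained introns only. For all genes the median was 16.3% with posterior mean TPM, 14.9% at 1 TPM and 17.2% at 50 TPM. Noncoding leaders by counts were 1, 0 and 344, against 4, 1 and 620. Median exon inclusion was 14.05% at a reproducibility fraction of 0.1 or less and over the 6 exons with 20 reads on both inclusion junctions, 10.2% outside the annotation and 16.5% over the 3 exons that overlap a coding exon. The last 3 sets were added after seeing the data. No paired analysis was possible because there is 1 group. At this depth every member was measured, but 2 libraries give the spread little precision, and transcript shares rest on a model that assigns fragments shared between transcripts.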
